A study of Mus musculus with 36 samples.

Results

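Aqp3 is 1 of the 25965 genes measured by RNA-seq in differentiating Xmas mouse embryonic stem cells (mESCs). It was chosen by its difference between libraries named double and libraries named single, in which it ranked first by p-value and second by size among 14042 autosomal genes tested. Its values for that comparison are therefore a description without a test. The changes with time and between the cell lines were not what the gene was chosen for.

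Xmas mESCs are female C57/Bl6 cells whose X chromosomes are marked at Hprt, one by GFP and the other by mCherry. All 36 libraries come from lines of such cells. These were expanded in medium with 2i and LIF and then weaned in daily steps of 25% into DME HiHi, a serum medium without LIF. RNA was collected on 9 days, day 0 to day 8, with 4 libraries a day. On every day replicate 1 was X14 double, replicate 2 X14 single, replicate 3 X18 double and replicate 4 X18 single. X14 and X18 are 2 lines. The labels do not give the meaning of double and single, so both words serve only as names. The paper calls Xmas cells double or single positive by the reporters they express. Its single positive mESCs carried only the matching reporter allele. Whether the words of the labels mean this is not stated. Each line and word is a single series of libraries over time, and separate cultures within a line and word are not described. The p-values measure the spread between these libraries, which may be partly technical. Unless the series is entered as a block, the fits take its libraries as independent.

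Aquaporins are channels of the cell membrane. Aqp3 belongs to the aquaglyceroporins, which pass glycerol as well as water, and it also lets hydrogen peroxide through. It is best known from epithelia such as the epidermis and the collecting duct of the kidney.

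In mm10 the gene (ENSMUSG00000028435) lies on the minus strand of chromosome 4 from 41092722 to 41098183, and its merged exons span 1829 bases. No gene of the GENCODE M21 annotation overlaps it. The 250 bases before its RefSeq start are shown as the promoter of the gene that all results turn on. They cover chr4:41098184-41098433 of GRCm38.p6 and are written 5′ to 3′ on the strand of the gene, with the letters of the motifs searched in capitals.

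Aqp3 promoter: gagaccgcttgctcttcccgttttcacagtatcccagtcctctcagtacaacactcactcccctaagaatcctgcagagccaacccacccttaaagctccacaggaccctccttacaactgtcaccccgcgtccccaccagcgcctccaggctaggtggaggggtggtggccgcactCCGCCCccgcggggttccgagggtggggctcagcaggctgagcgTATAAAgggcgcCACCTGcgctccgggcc

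The motifs named next were searched on both strands. TATAAA, the core of the TATA box, begins at position -29, where -1 is the last base before the start. It occurs in 13.0% of 27025 mouse promoters of the same length. CACCTG, an E-box, begins at -17 and occurs in 17.1% of promoters. GGGCGG, a GC box, is present on the opposite strand from -73 and occurs in 32.9%. GCCNNNGGC, which AP-2 factors bind, was not among these letters and occurs in 13.6%. None of the matches overlapped another. The stretch holds 14 CpG dinucleotides, and 29.6% of promoters hold as many or more.

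The depth set the limit for the low values. Between 612740 and 2445826 reads per library lay in genes, and 3 reads of Aqp3 correspond to 1.04 to 3.90 RPM (reads per 1000000 reads of the library). RPKM is the same quantity per kilobase of exon. In 35 of the 36 libraries Aqp3 had at least 1 read, from 1 to 650, and X14 single on day 6 had 0 reads, for which the floor of 3 reads is 3.70 RPM and the upper end of the exact 95% interval 4.55 RPM (counting error only). The 6 libraries with 3 reads or fewer were all named single.

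The libraries of day 0 in line X14 did not follow the words as the others did. The X-to-autosome balance of a library compares 569 X-linked with the 14042 autosomal genes: each gene was centred on its mean log2 level in all libraries, and the autosomal median was taken from the X-linked median. It was higher in the double library than in the single library of the same line and day in 17 of 18 pairs. On day 0 in X14 it was -0.72 in the library labelled double and 0.63 in the library labelled single. Whether the labels of these 2 libraries were exchanged cannot be told from the sources used. The calls of Aqp3 against day 0 and its difference between the words are therefore given with and without them. Other results include them unless stated.

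Aqp3 was among the more abundant transcripts of the undifferentiated cells. On day 0 its level was 79.4 RPKM in the library labelled X14 double, 165 in X14 single, 111 in X18 double and 63.9 in X18 single (mean 105 ± 44.4, SD, n = 4). Between 92.8% and 97.7% of the autosomal genes tested lay below it. On day 1 the 4 libraries held 104, 50.4, 162 and 61.9 RPKM in the same order, so the ranges of the first 2 days overlapped. On day 2 the double libraries were at 75.8 and 77.0 RPKM, while the single libraries had come down to 12.3 in X14 and 28.8 in X18.

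On day 3 the single libraries held 3.61 and 2.93 RPKM and the double libraries 41.2 and 53.2 RPKM. Day 4 was the lowest point of both double cultures. There the levels were 4.04 RPKM in X14 double (11 reads), 0.354 in X14 single (1 read), 3.69 in X18 double (12 reads) and 0.919 in X18 single (3 reads). Every library of day 4 lay below every library of days 0, 1, 2 and 5, and the mean was 2.25 ± 1.89 RPKM (SD, n = 4).

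Aqp3 came back on day 5, when the level was 49.7 RPKM in X14 double, 13.0 in X14 single, 38.2 in X18 double and 6.08 in X18 single. On day 6 it was low again, with 11.7 and 11.3 RPKM in the double libraries and 0 and 2 reads in the single ones. On days 7 and 8 the double libraries held between 26.2 and 33.7 RPKM, and the single libraries between 1.30 and 1.96 RPKM from 2 to 5 reads each. At that count the single libraries cannot be told apart from each other. The exact 95% interval of X18 single on day 8 runs from 0.158 to 4.70 RPKM and covers counting error only.

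**Figure D1:**
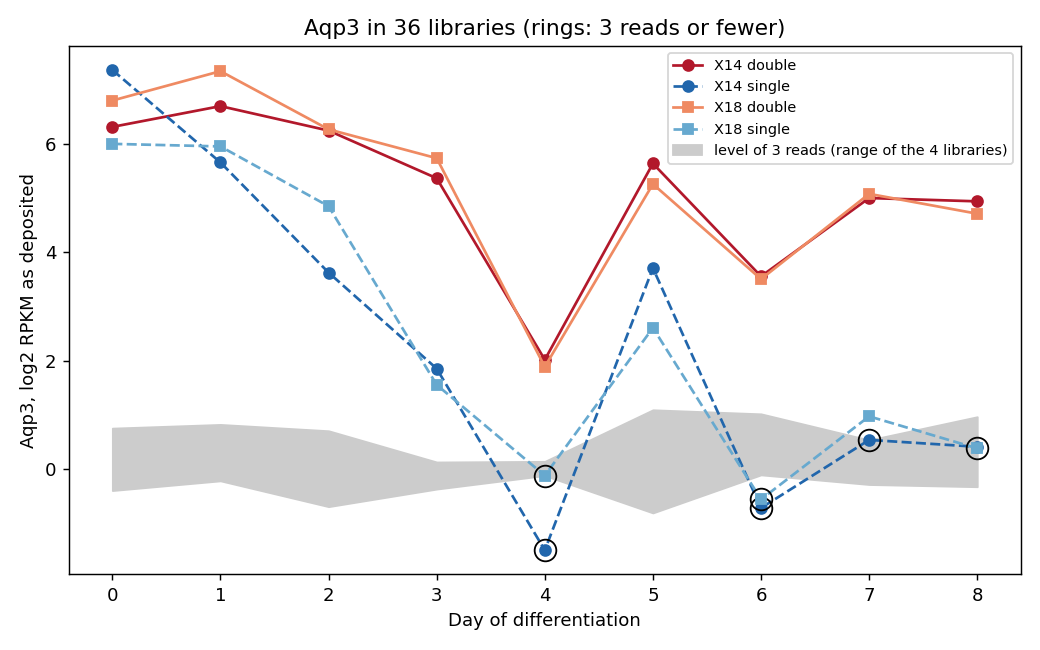
Aqp3 in every library as deposited log2 RPKM against the day of differentiation, with a line for each line and word, a grey band for the level that 3 reads give in the 4 libraries of a day, and rings around the 6 libraries with 3 reads or fewer. All 4 lines dip on day 4 and on day 6 with a higher value on day 5 between them, and the single libraries lie below the double libraries of the same line from day 1 on.

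The comparisons with day 0 ask how far Aqp3 moved as the cells left the naive state. Over all days Aqp3 changed (F test of limma, adjusted p = 0.000158). Day 4 minus day 0 was -6.05 ± 1.17 in log2 units (SE, by limma, adjusted p = 0.000223), and all 4 cultures moved down. On day 4, 6.4% of the 14612 genes tested were called lower, that is with an adjusted p under 0.05 and a log2 fold change of at least 1. Aqp3 was also called lower on day 6 (-5.17, limma, adjusted p = 0.000625), where 11.0% of genes were. On day 7 the difference was -3.72 (limma, adjusted p = 0.00975) and 11.6% of genes were lower, and on day 8 it was -4.01 (limma, adjusted p = 0.00568) with 11.1% lower.

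Days 1, 2, 3 and 5 did not pass the test. The log2 differences were -0.21 on day 1 (limma, adjusted p = 0.987), -1.37 on day 2 (limma, adjusted p = 0.512), -2.99 on day 3 (limma, adjusted p = 0.083) and -2.32 on day 5 (limma, adjusted p = 0.123). The shares of genes called lower on these days were 0.0342%, 0.876%, 3.17% and 11.0%. All 4 cultures were below day 0 on days 2, 3 and 5, against 2 of 4 on day 1.

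The spread behind these tests contains the gap between double and single libraries. With the replicate number as a block the SE was 0.62 instead of 1.17. Day 3 (limma, adjusted p = 0.00125) and day 5 (limma, adjusted p = 0.0036) were then called lower, beside 3.87% and 11.6% of all genes. Days 4, 6, 7 and 8 stayed past the threshold without the 2 X14 libraries of day 0, at differences of -5.83, -4.95, -3.50 and -3.79 (limma, adjusted p = 0.00251, 0.00597, 0.0477 and 0.0332). Without replicate 2, X14 single, days 7 and 8 were no longer called (adjusted p = 0.0891 and 0.059), and without replicate 4, X18 single, day 7 was not called (adjusted p = 0.0559).

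The size of the fall differed between cultures. How it differed between double and single cultures belongs to the comparison that chose the gene, so these values are a description. From day 0 to day 8 the log2 level fell by 1.37 in X14 double and by 2.09 in X18 double, which is 2.59-fold and 4.25-fold. In the single cultures it fell by 6.95 in X14 and by 5.62 in X18. The X14 values start from the day 0 libraries that go against their words. X18 single stood at 2 reads on day 8, so its level there was 49.2-fold below day 0 by the reads and 32.8-fold when the day 8 level is set to 3 reads.

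The steps between consecutive days were looked at after the values had been seen. From day 4 to day 5 Aqp3 rose by a log2 difference of 3.73 ± 1.17 (SE; limma, adjusted p = 0.026), in all 4 cultures and by 2.73 to 5.20 in each. In that step 4.83% of all genes tested were called higher. The call was lost when any 1 replicate was left out (adjusted p = 0.0554 to 0.106) and with voom on the recovered reads (adjusted p = 0.122), and with the replicate block it was passed (limma, adjusted p = 7.2e-05).

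The step down from day 3 to day 4 was -3.06 (limma, adjusted p = 0.141) and the step down from day 5 to day 6 was -2.86 (limma, adjusted p = 0.101), each in 4 of 4 cultures. They were not called, as against 1.7% and 2.59% of genes called lower in these steps. With the replicate block both were called (limma, adjusted p = 0.00128 and 0.00162), beside 2.03% and 3.18% of genes. From day 6 to day 7 the difference was 1.45 (limma, adjusted p = 0.73), and from day 7 to day 8 it was -0.29 (limma, adjusted p = 0.997).

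Few genes had this course in every culture. Aqp3 was 1 of 45 autosomal genes, 0.32% of those tested, that in all 4 cultures were lower on day 4 than on days 3 and 5 and lower on day 6 than on days 5 and 7, a shape chosen after the values were seen. In the single cultures the rise of Aqp3 from day 6 to day 7 was from 0 to 3 reads in X14 and from 2 to 5 in X18. The exact 95% intervals of these levels overlapped, so counting error alone could give that part of the shape. Among the 45, Aqp3 had the largest rise from day 4 to day 5. Fabp3, a fatty acid binding protein, came next with a log2 rise of 2.16, followed by B3galnt1, a glycosyltransferase, with 2.10. Fabp3 has a close copy, Fabp3-ps1, in the same list with 1.97, and their reads may have been split between them.

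Markers of the primed state also moved on these days. The summed level of 6 primed markers, which include Otx2, Fgf5 and Dnmt3b, went from 139 to 310 RPKM on day 3 up to 418 to 813 a day later, then down to 87.5 to 225 on day 5 and up again to 196 to 329. From day 3 to day 4, 4 of the 6 were called higher (limma, median log2 difference 1.51 against 0.05 for all genes), beside 3.33% of all genes. All 6 were called lower in the next step (limma, median -2.03 against -0.02), beside 5.78%. From day 5 to day 6, 1 of the 6 was called higher (limma, median 0.34 against 0.13), beside 7.14%. The summed level of 10 naive markers was 1605 to 2118 RPKM on day 0, and days 4, 5 and 8 had 598 to 896, 395 to 713 and 157 to 319. On day 4, 8 of the 10 were called lower than on day 0 (limma), beside 6.4% of all genes. Pou5f1 made up most of the sum on that day, at a mean of 534 RPKM against 542 on day 0. Nanog went from 837 to 58.1 RPKM. Prdm14 alone of the 10 had 0 reads in both single libraries of a day, on days 4 to 7. In bulk RNA, fewer cells that express a gene and less RNA per cell cannot be told apart, and the part of these markers in the course of Aqp3 was not tested.

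Sampled over 18 pairs of the same day and word, the lines X14 and X18 were not distinguished by Aqp3. The mean log2 level was 3.70 in X14 and 3.79 in X18, and X14 was higher in 8 of 18 pairs. The difference, X14 minus X18, was -0.08 ± 0.29 (SE; limma with day and word, adjusted p = 0.90). Its 95% interval runs from -0.68 to 0.51 on 25 residual degrees of freedom. The fit takes the libraries as independent, although each line and word is a single series over time. The interval therefore does not cover the spread between independent cultures. Of all genes tested, 0.0137% were called in either direction. Within single pairs the difference ranged from -1.38 to 1.36.

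The values that chose the gene are the differences between the double and single libraries of the same line and day. The double library was higher in 17 of 18 pairs, with a mean log2 difference of 2.77 and an SD over the pairs of 1.60. In the fit with day and line the coefficient was 2.77 in all libraries, 2.76 in X14 alone and 2.77 in X18 alone. With voom on the recovered reads it was 1.89. Without day 0 it was 3.13, and without the 2 X14 libraries of day 0 it was 2.99. In the ranking by p without day 0 Aqp3 was number 3, behind Nlrp4c and Sycp1.

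Next to Aqp3 in the order by size stood Nlrp4c with 2.89 above it and Rcsd1 with 2.55 and Sycp1 with 2.21 below it, followed by Gm14074 and Rsad2 with 1.98 each. Nlrp4c is a gene of oocytes and Sycp1 a part of the synaptonemal complex of meiosis. By p the next were Gm6169, Cth, Sycp1, Gng3 and Nlrp4c. Cth, an enzyme of cysteine synthesis, and Gng3, a G protein subunit, were lower in the double libraries, with -0.68 and -1.27. For comparison, 2.05% of the 14612 genes were called higher in the double libraries and 0.944% lower, X-linked genes included.

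The gap in Aqp3 was larger on days 6 to 8 than on days 1 and 2, and in both lines it was smaller on day 5 than on day 3. On day 4 it was smaller than on day 3 in X18 only, from few reads. On day 0 the library labelled X14 single was above the library labelled X14 double, at a double-to-single ratio of 0.483 (exact 95% interval 0.421 to 0.553, counting error only). In X18 the ratio on that day was 1.74 (1.39 to 2.18). On day 1 it was 2.06 in X14 and 2.62 in X18. On day 3 it had reached 11.4 in X14 and 18.1 in X18.

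On day 4 the ratio was 11.4 in X14 from 11 against 1 read, and its interval of 1.66 to 492 says little about its size. In X18 it was 4.02 from 12 against 3 reads, with an interval of 1.08 to 22.2. Day 5 had smaller gaps than day 3, with ratios of 3.81 in X14 and 6.29 in X18, at higher counts than on day 4. On day 6 X14 double was 5.80-fold above the level that 3 reads would give in X14 single, which had 0, and the exact 95% lower limit of the ratio was 4.49. On day 8 the ratio was 23.1 in X14 (9.59 to 72.5) and 20.1 in X18 (5.31 to 170). Averaged over the 2 lines, the log2 differences of days 1 to 8 were 1.21, 2.02, 3.85, 2.76, 2.29, 4.17, 4.28 and 4.43. The value of day 6 takes the 0 reads of X14 single as 0.9 read. Those of days 7 and 8 rest on 2 to 5 reads in each single library, so their size is uncertain.

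The gap in the X-to-autosome balance was smaller on day 8 than on day 1. This double-minus-single gap, averaged over the 2 lines, went from 1.10 on day 1 and 1.16 on day 3 to 0.709 by day 5 and 0.339 by day 8. The sign of the gap in Aqp3 equalled the sign of the gap in the balance in 18 of 18 pairs. That includes day 0 in X14, where the library with the higher balance was the one labelled single and also had more Aqp3. After each day's mean was subtracted, Aqp3 and the balance had a Pearson r of 0.73 over 36 libraries (Spearman rho 0.60). The r was 0.73 in X14 and 0.74 in X18, and 0.78 without day 0. The libraries of a culture share their cells, so these are not independent points, and without the subtraction r was 0.51. The signs and r use the same differences that chose Aqp3, and the balance also separates the words, so they are a description.

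**Figure D2:**
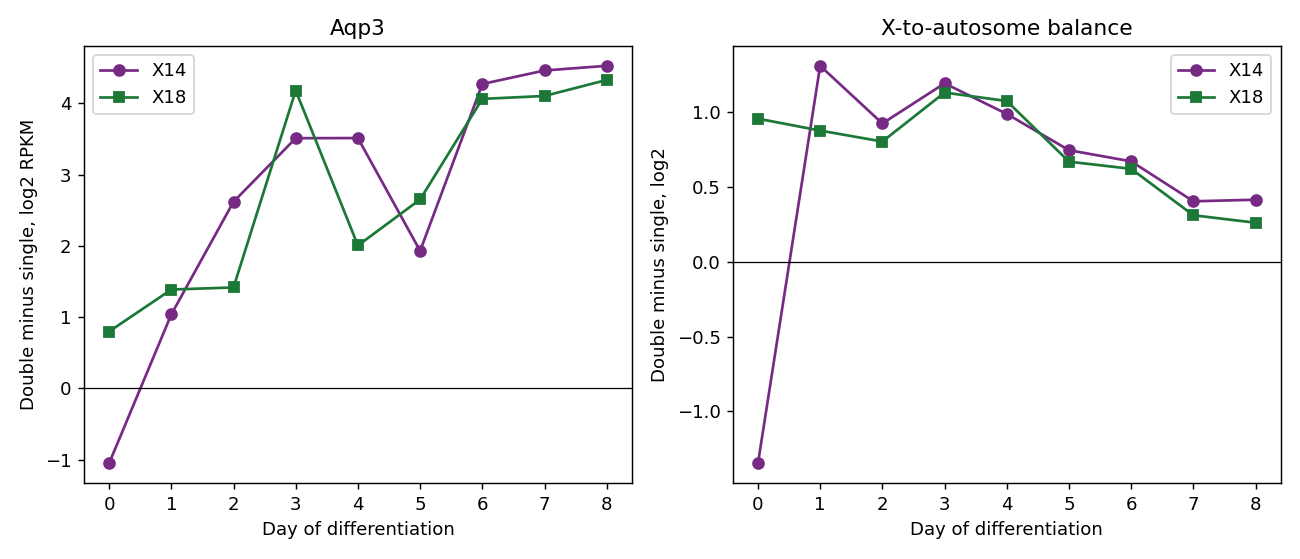
Log2 difference between the double and single library of the same day, for Aqp3 (left) and for the X-to-autosome balance (right), in X14 (circles) and X18 (squares). Aqp3 goes from -1.05 and 0.80 on day 0 to 4.53 and 4.33 on day 8, while the balance is largest between days 1 and 4 and falls to 0.42 and 0.26 on day 8.

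Markers of other cell types also differed between the words. The sum of 9 trophoblast markers was higher in both double libraries than in both single libraries on each day from 1 to 8. It was 43.7 to 48.0 against 20.8 to 24.9 RPKM on day 3 and 35.8 to 36.8 against 13.3 to 14.1 RPKM a day later. By day 8 it was 256 to 311 RPKM in the double libraries and 104 to 143 RPKM in the single libraries. On day 0 these ranges were 22.4 to 32.9 and 27.7 to 39.9 RPKM, and of the 9 markers Elf5 and Hand1 had 0 reads in all 4 libraries. Cdx2, Elf5 and Hand1 had 0 reads in all libraries of days 2 and 3, as did Cdx2, Elf5 and Gata2 on day 4. The early sums rested on few genes, with a mean of 26.1 RPKM for Tfap2c on day 0 and 15.0 RPKM for Ascl2 on day 4. Of the 8 tested, 4 were called higher in the double libraries, beside 2.05% of all genes. These were Gata2, Gata3, Hand1 and Tfap2c. The double-minus-single differences of Cdx2, Eomes, Krt7 and Ascl2, which were not called, were 0.007, 0.013, -0.02 and 0.77.

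The summed primed markers were higher in the single libraries on days 3 to 8, for example 667 to 813 against 418 to 434 RPKM on day 4. The summed naive markers were higher in the double libraries on days 1 to 5, with 2282 to 2429 against 1732 to 1880 RPKM on day 1, and higher in the single libraries on days 7 and 8. The sum of 8 fibroblast markers was higher in the single libraries on days 5, 6 and 8. On day 5 it was 34.1 to 40.2 against 13.2 to 14.8 RPKM. It was higher in the double libraries on days 2 and 4. Thy1 and Acta2 made up most of the sum on day 5, at means of 16.9 and 5.89 RPKM, and Col1a1 was at 0.458. Of the markers tested, 0 of 7 fibroblast and 0 of 6 primed were called between the words (limma). Of the 10 naive markers 3 were called higher in the double libraries and 0 lower, beside 2.05% and 0.944% of all genes. Visceral endoderm markers, 9 in number, summed to at most 16.4 RPKM in any library.

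Of 7 surface ectoderm markers, the epidermal genes Trp63, Krt5, Krt14 and Krt15 had 12 reads or fewer each in all 36 libraries together. The sum of the 7 was 27.1 to 29.8 RPKM in the double libraries and 16.3 to 17.7 RPKM in the single libraries on day 3. On day 8 these ranges were 92.5 to 108 and 65.4 to 94.7 RPKM and overlapped. Perp, a junction gene of stratified epithelia, made up most of the sum on day 8, at a mean of 84.6 RPKM, and was higher than on day 0 by 2.84 (limma, adjusted p = 7.76e-09). Grhl3, a transcription factor of epidermal differentiation, had a double-minus-single difference of 0.97, below the fold limit (limma, adjusted p = 0.00715). The part of these markers in the gap of Aqp3 was not tested.

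The genes around Aqp3 showed no difference of that size. In the window of 200 kb on either side lie 9 genes, of which 7 were tested. Their double-minus-single differences lay between -0.32 (Nol6) and 0.13 (Chmp5), and 0 of 7 were called (limma, and also voom), with 2 at an unadjusted p under 0.05. The smallest adjusted p was 0.061, for Nfx1 at -0.19 (limma). The nearest gene tested, Nol6, which takes part in making ribosomes, lies 16.2 kb away.

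With time the neighbours took several courses. Chmp5, a part of the ESCRT machinery, was lower on day 4 by a log2 difference of -0.63, below the fold limit (limma, adjusted p = 0.017), had a difference of 0.33 from day 4 to day 5 (limma, adjusted p = 0.28) and had an r with Aqp3 of 0.40. Ube2r2, a ubiquitin-conjugating enzyme, was higher on day 8 by 1.29 and Ubap2 was higher on day 4 by 1.17 (limma, adjusted p = 0.014). Bag1, a cochaperone, differed by 0.01 between day 8 and day 0. Spink4 had 0 reads in all libraries and Aqp7, another aquaglyceroporin and the nearest member of the family, 44.6 kb away, had 1 read. Over the 987 tested genes of chromosome 4 the median double-minus-single difference was -0.06, and over the 13055 of the other autosomes it was also -0.06. The median of the X-linked genes was 0.63.

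**Figure D3:**
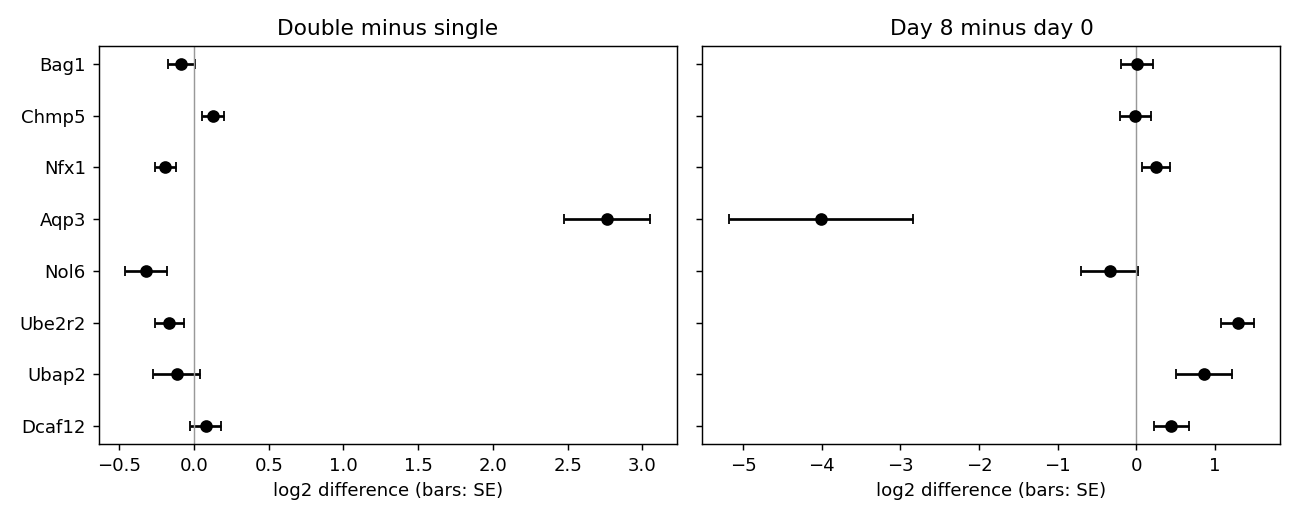
Log2 difference of Aqp3 and the 7 tested genes within 200 kb, in the order of their position, between double and single libraries (left) and between day 8 and day 0 (right), with the SE of the limma fit as bars. Aqp3 stands at 2.77 and -4.01, and the neighbours lie between -0.32 and 0.13 on the left and between -0.34 and 1.29 on the right.

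Aqp3 accounted for nearly all reads of its family. Of 4046 reads assigned to 12 aquaporins in the 36 libraries, 3757 (92.9%) were of Aqp3. Aqp1, Aqp2, Aqp4 and Aqp12 had 0 reads. The next in level was Aqp11, an aquaporin of intracellular membranes, with a mean of 1.24 RPKM against 37.8 RPKM for Aqp3. Besides Aqp3, 4 aquaporins passed the filter on low values: Mip, Aqp6, Aqp9 and Aqp11.

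Between double and single libraries 0 of these 4 were called with limma or voom, and 0 had an unadjusted p under 0.05, with differences from -0.30 (Aqp11) to -0.02 (Mip) and limma adjusted p-values of 0.534 to 0.972. From day 0 to day 8 Aqp11 fell by 1.75 on the log2 scale (limma, adjusted p = 0.0227), a call that was lost without replicate 1, without replicate 2 and without the 2 X14 libraries of day 0. Aqp9, a second aquaglyceroporin that was tested, had a difference of 0.67 (limma, adjusted p = 0.507) at a mean of 0.378 RPKM. Their low counts limit what these differences can show.

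Genes that handle glycerol included 1 that moved with the words. Of 12 tested, 1 was called higher in the double libraries and 0 lower (limma), with a median of 0.02 beside -0.05 for all genes. It was Gpat3, which adds the first fatty acid to glycerol phosphate, at 1.70 (limma, adjusted p = 3.28e-06) and with a Pearson r with Aqp3 of 0.69. X-linked Gk, the kinase that phosphorylates glycerol, was at 0.76 and below the fold limit.

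On day 4, 2 of the 12 were higher than on day 0 and 1 lower, beside 12.2% and 6.4% of all genes. Those higher were Gpd2, the mitochondrial glycerol phosphate dehydrogenase, and Pnpla2, a triglyceride lipase. Without the 2 X14 libraries of day 0 these counts were 4 and 1, without replicate 1 they were 3 and 2, and without replicate 3 they were 1 and 0. On day 8, 3 were higher and 2 lower, beside 23.9% and 11.1% of all genes. Gk fell from 7.66 RPKM on day 0 to 0.737 RPKM on day 8, by 3.16 on the log2 scale (limma, adjusted p = 1.93e-05). Mgll, Pnpla2 and Gpat4 were higher.

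Of 17 tested genes that make or remove hydrogen peroxide, 0 were called between double and single libraries with limma or voom, and 6 had an unadjusted p under 0.05. Prdx4, Gpx4, Cat and Prdx5 had a limma adjusted p under 0.05 at differences of 0.79, 0.75, -0.33 and -0.32. Of these, Prdx4 is X-linked, and the median difference of the X-linked genes was 0.63. Time moved more of them. On day 8, 6 were lower than on day 0 and 3 higher, beside 11.1% and 23.9% of all genes. On day 4 these counts were 3 and 2, beside 6.4% and 12.2%, and without replicate 2 they were 1 and 1. Gpx1, a glutathione peroxidase, went from 781 to 221 RPKM by day 8 (-1.77, limma, adjusted p = 6.77e-06), and Gpx8 from 2.59 to 24.3 RPKM.

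Epithelial genes rose while Aqp3 fell. Of 16 tested, 10 were called higher on day 4 and 15 on day 8, and 0 were lower (limma), beside 12.2% and 23.9% of all genes called higher. The median difference on day 8 was 4.89, beside 0.23 for all genes. Krt8, a keratin of simple epithelia, went from 1.17 RPKM on day 0 to 679 RPKM on day 8, and Krt18, its partner, from 1.90 to 1244 RPKM. Cdh1, E-cadherin, went from 99.5 to 236 RPKM. Between double and single libraries 0 of the 16 were called with limma or voom, and the median difference was -0.07. With limma 9 had an unadjusted p under 0.05. Ocln, Cldn6, Cldn7 and Epcam had a limma adjusted p under 0.05 at -0.85, -0.87, -0.69 and -0.24, below the fold limit. So did Cldn3 and Grhl2 at 0.76 and 0.57.

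Germline genes whose promoters are known to be methylated in somatic cells were the list with most calls between the words. This list, like the others, was written with earlier results of these data known, so its counts are a description. Of 14 tested, 7 were called higher in the double libraries and 0 lower (limma), with a median of 1.06, beside 2.05% and 0.944% of all genes. The 7 were Dazl, Mael, Tex19.1, Slc25a31, Asz1, Stk31 and Hormad1. Stk31, a kinase of germ cells, had the largest difference at 1.94 and Tex19.1 the smallest of the 7 at 1.25. Without replicate 3, 4 of the 14 were called, and 3 without replicate 4. With time, 6 of the 14 were lower on day 8 than on day 0, among them Dazl (-6.95) and Hormad1 (-6.01), a gene of meiotic chromosomes, and 1 was higher, Tdrd1, beside 11.1% and 23.9% of all genes. Without the 2 X14 libraries of day 0, 4 were lower and 0 higher (limma).

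These counts rested on the X14 pair of day 0 and on the line. Over the 5 lists, 8 genes were called between the words, 10 without the 2 X14 libraries of day 0 and 11 without day 0. In X14 alone 0 were called (limma, 13 at an unadjusted p under 0.05), and 12 without day 0. In X18 alone the number was 8, and 9 without day 0.

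**Figure D4:**
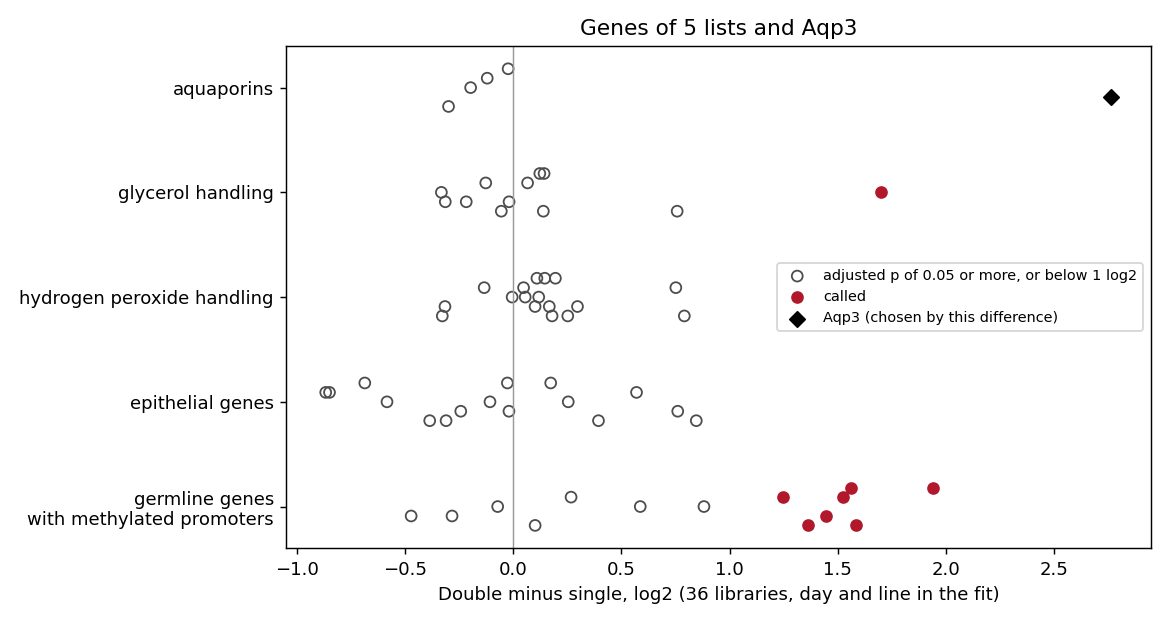
Log2 difference between double and single libraries, from the fit with day and line, for each tested gene of 5 lists, with called genes filled and Aqp3 as a diamond. Aqp3 stands at 2.77, apart from the 4 other aquaporins at or below 0, and 7 of 14 germline genes and 1 glycerol gene are filled.

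The autosomal genes most like Aqp3 were found by Pearson r of the log2 values over the 36 libraries. Libraries of a day share the medium and those of a culture share the cells, so r describes the shape and has no test. Of 14041 genes, 12 had an r of at least 0.8, and the median r was -0.10. The highest was Mosc2 with 0.88, the older symbol of Mtarc2, a mitochondrial reductase. AA467197, also known as Nmes1, followed with 0.86 and Tmem191c with 0.85.

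Next came Gm5424 with 0.85, which RefSeq lists as a transcribed pseudogene and whose sequence resembles Ass1, so that their reads may have been split. Then followed 1200016B10Rik (now Swt1) with 0.84, Tbx3 with 0.83, Acads and Gss with 0.82, and Usp46 and Ass1 with 0.81. Tbx3 is a transcription factor of the naive state, Acads an enzyme of fatty acid oxidation, Gss the glutathione synthetase, Usp46 a deubiquitinase and Ass1 an enzyme of arginine synthesis. When the 2 libraries with the most extreme Aqp3 values were left out, r for the 10 lay between 0.78 and 0.87. Without the libraries of day 0 it lay between 0.78 and 0.85.

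Like Aqp3, AA467197 was higher in the library labelled X14 single than in X14 double on day 0. It was at 8.08 RPKM in X14 double and 33.9 in X14 single on day 0, and at 35.7 and 4.35 RPKM on day 1. On day 4 it was at 0.56 and 0.54 RPKM in X14 and at 0 and 0.47 in X18, and on day 5 between 2.60 and 4.62 RPKM. In 9 of the 10 genes the library labelled X14 single was the higher of the X14 pair on day 0, as for Aqp3, and Tbx3 was the exception. The 10 were chosen by an r that includes these 2 libraries and all days. What they share with Aqp3 is therefore a description.

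Tbx3 shared the dip of day 4. It stood between 8.81 and 34.6 RPKM on day 0, between 0.10 and 0.50 on day 4 and between 1.75 and 3.37 on day 5. Gm5424, Ass1 and Gss did not come back on day 5, when their log2 differences from day 4 were -0.41, -0.30 and -0.03. Of the 10 genes, 7 were higher on day 5 than on day 4, and 2 were called higher (limma), beside 4.83% of all genes. In that step the log2 difference was 3.73 for Aqp3, 3.56 for Tbx3 and 0.56 for Mosc2.

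The genes that ran against Aqp3 most closely were Fam84b with an r of -0.92, Enpp2 with -0.86, and Spred1, Tor3a and Nt5dc2 with -0.85 each. Fam84b, now Lratd2, is nearly a mirror image at a low level: on days 0, 4, 5, 6 and 8 it was at 1.0, 8.61, 3.55, 7.77 and 7.95 RPKM in X14 single, and at 1.66, 4.47, 1.40, 2.54 and 2.05 RPKM in X14 double. Enpp2, which encodes the secreted enzyme autotaxin, had 0 reads on days 0 and 1 in all 8 libraries. On day 4 it was at 30.2 and 27.4 RPKM in the single libraries and at 7.94 and 4.54 in the double ones. Spred1 is an inhibitor of the Ras-MAPK pathway.

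**Figure D5:**
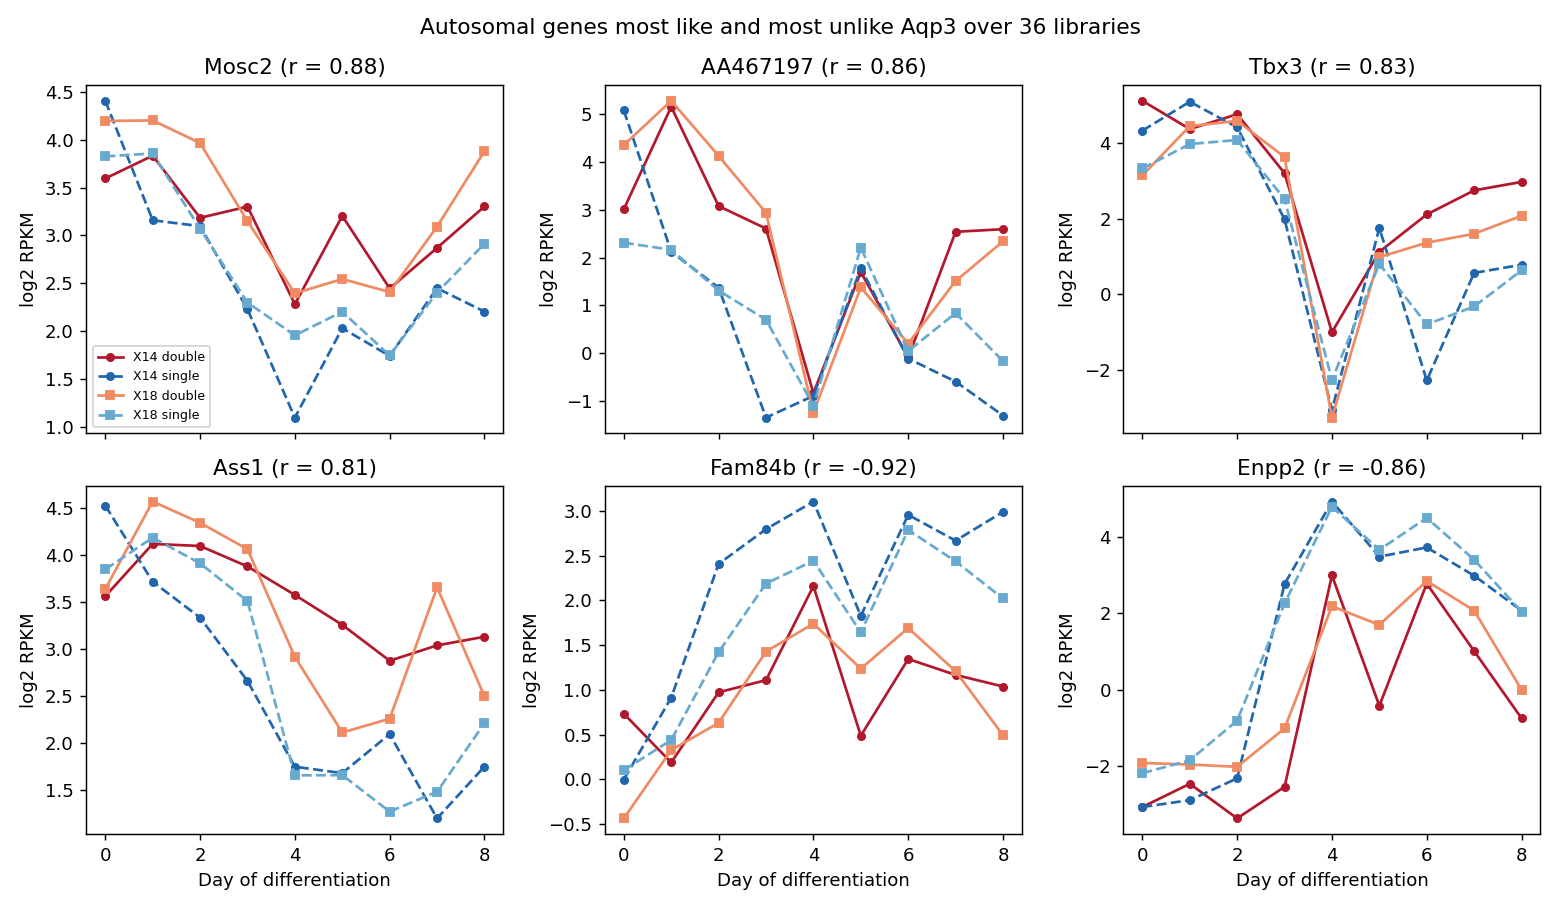
Log2 RPKM by day and culture of 4 of the 10 autosomal genes most like Aqp3 (Mosc2, AA467197, Tbx3, Ass1) and the 2 least like it (Fam84b, Enpp2), with r over 36 libraries in each title. Tbx3 lies between 0.10 and 0.50 RPKM on day 4, and Fam84b and Enpp2 are higher on day 4 than on day 0, where the single libraries lie above the double ones.

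Within days the order of likeness was another one. After each day's mean was subtracted, so that mainly the gap between double and single libraries was left, r was 0.94 for Gm5424, 0.93 for Tex19.1, 0.92 for Lamp1, 0.92 for Ctsd and 0.91 for Gpat2. Tex19.1 is a germline gene, Lamp1 a lysosomal membrane protein, Ctsd a lysosomal protease and Gpat2 an acyltransferase of glycerol phosphate in mitochondria. Without the subtraction r was 0.18 for Lamp1 and 0.35 for Ctsd. Both genes differed little between the words, by 0.43 and 0.49, and only Gm5424 was also among the first 10 over all libraries. Since Aqp3 was chosen for the gap, these genes share what chose it.

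Likeness found in one line was looked up in the other. The 5 genes most like Aqp3 in X14, which were Mosc2, AC140392.1, 1200016B10Rik, AA467197 and Rnf181, had r between 0.88 and 0.91 there. In X18 their r was 0.85, 0.70, 0.82, 0.84 and 0.67. The first 5 in X18 were Tmem191c, Brp44l-ps, Mosc2, Slc39a11 and Tfcp2l1, with r of 0.85 to 0.87. In X14 these had 0.84, 0.75, 0.91, 0.68 and 0.74. Mosc2 was the only gene in both sets. The deposited table names an overlapping gene for Tbx3, Gss, Ctsd, Rnf181 and Brp44l-ps, and since the use of strand in counting is not given, reads of both genes may be mixed there.

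Of the 36 genes with an r of at least 0.8 in X14, 25% reached 0.8 in X18, and of the 25 genes that did so in X18, 36% reached it in X14. The median r in X18 of the 36 genes was 0.75 and the lowest 0.51, where the median of all autosomal genes was -0.11. Both lines were sampled on the same days in the same medium, so a shared course over time enters both values.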

How the data were processed

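RNA was sequenced as 75 bp single-end reads, which the authors quantified in SeqMonk after trimming (trim_galore) and alignment to mm10 by tophat or hisat2 (the submitters' processing notes list TopHat2 2.0.12). The annotation version and the use of strand are not given in the sources used here. The authors deposited log2 values. The methods call them RPM, but the lowest values scale with exon length, so they are log2 RPKM. Treating a gene without reads as 0.9 read turned 100% of the values into whole reads (tolerance 0.05). All 36 value columns were mapped, and 0 were left over.

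Genes with at least 1 RPM in at least 4 libraries (14612) were fitted with limma 3.58.1 (R 4.3.3, lmFit and a trended eBayes), either on day alone or on day, line and word. P-values were two-sided and Benjamini-Hochberg adjusted over all genes tested. Exact (Clopper-Pearson) intervals and floors of 3 reads cover counting error only, as the reads carry no molecular identifiers. The fit was tested on simulated data: of 100 genes changed by a log2 of 2 in the comparison of days over 14612 genes, 81% were called in the right direction. The simulated libraries were independent, with the same dispersion for every gene and no difference between words or cultures. That share therefore does not give the power in the real libraries.

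Same-numbered libraries share line and word, which pairs them across days. Their deviations from the day means had a median correlation of 0.15 (91 of 144 pairs above 0.1), against -0.07 for other pairs.

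Aqp3 and all lists were chosen with earlier results of these data known. Named genes are Aqp3, the list members, the 10 autosomal genes with the highest and 5 with the lowest r, the first 5 within days and in each line, the 5 neighbours in the double-minus-single ranks, and tested genes within 200 kb. Alternatives were no filter, 75th percentile and quantile scaling, log2(RPM + 1), voom, a replicate block, fits of fewer days or libraries, and leaving out each replicate.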

Additional observations from a re-analysis of the deposited data

Results flagged for a closer look

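On day 0 the log2 difference of Aqp3 between the double and the single library was -1.05 in X14 and 0.80 in X18. The 2 lines, with 1 library of each word, moved in opposite directions, and the difference between them was not tested. On the same day the X-to-autosome balance of the double library minus that of the single library was -1.35 in X14 and 0.96 in X18. On no day did 1 of the 4 libraries stand apart from the other 3 in Aqp3 by Dixon's criterion.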

How the results depend on the processing

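Leaving out each replicate in turn gave log2 differences from day 0 of -0.46 to 0.29 on day 1, -1.81 to -0.58 on day 2, -3.67 to -2.15 on day 3, -6.63 to -5.11 on day 4, -2.86 to -1.87 on day 5, -5.98 to -4.20 on day 6, -4.53 to -2.69 on day 7 and -4.89 to -3.03 on day 8. The same range was -3.52 to -2.79 from day 3 to day 4, 3.24 to 4.07 from day 4 to day 5 and -3.22 to -2.33 from day 5 to day 6. The sign on day 1 turned without replicate 2 (0.29) and without the 2 X14 libraries of day 0 (0.012).

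Day 3 was called with voom (-3.11), with the replicate block (-2.99) and without replicate 1 (-3.67, adjusted p = 0.0359). Day 5 was called with voom (-2.54), with the replicate block (-2.32) and with only the 2 days in the fit (-2.32, adjusted p = 0.0119). Days 7 and 8 lost the call without replicate 2 (-2.69 and -3.03), and day 7 without replicate 4 (-3.29). The replicate block also called the steps to day 4 (-3.06) and day 6 (-2.86) and changed no other call of Aqp3. Voom did not call the step to day 5 (3.29). Days 4 and 6 were called under each alternative run, with adjusted p-values up to 0.00596 and 0.0112, and the lines were not called under any. The causes were not tested.

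Of list genes, 15 to 22 were called on day 4 and 35 to 36 on day 8 when a replicate was left out (20 and 37 in all libraries). Between the words 4 to 8 were called when a replicate was left out, 0 in X14 alone, and 20 with no minimum fold change, against 8. Of the 10 genes most like Aqp3, 6 stayed among the first 10 by Spearman rho, 1 after subtracting each day's mean, and 6 to 8 without a replicate. The within-day r with the X-to-autosome balance was 0.78 without day 0.

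Between days 0 and 8 the log2 difference of Aqp3 was -4.01 in the deposited values, -4.21 with 75th percentile scaling and -4.01 with quantile normalization, where the medians of all genes were 0.23, 0.02 and -0.09. Depth limits the single libraries after day 3, where Aqp3 rests on 0 to 5 reads on days 4, 6, 7 and 8.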
